A study of Mus musculus with 8 samples.

Results

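The annexins are a family of 10 genes here (Anxa1, Anxa2, Anxa3, Anxa4, Anxa5, Anxa6, Anxa7, Anxa8, Anxa11 and Anxa13), taken by their gene names on the array, of 31791 gene names in all. They were measured by 14 probes of 39429. All 14 probes entered the test, which covered 26009 probes and 20866 gene names. The cells were IEC10, a mouse intestinal epithelial line immortalized from a transgenic animal that carries firefly luciferase under the Mx2 promoter, so that every group shares this transgene and this single line. They were grown for 21 days on transwell inserts to polarize. Control cells had no stimulus (2 arrays, replicates 2 and 3), and the other cells received 20 ng/mL IFN-λ2 (3 arrays) or 500 U/mL IFN-β (3 arrays) for 9 h. IFN-λ2 is a type III and IFN-β a type I interferon, and the comparison asks whether the cytokines induce different genes in polarized epithelium. The labels do not say whether replicates came from separate cultures, so p-values measure the spread between these arrays, which may be technical.

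Annexins bind negatively charged phospholipids when calcium rises, through a conserved core of repeats, while a variable N-terminal tail carries sites for partners such as S100 proteins. They take part in membrane trafficking, exocytosis, membrane repair and the organization of the membrane cytoskeleton. In the intestine Anxa13 is a gut-enriched member whose isoforms are tied to the delivery of vesicles to the cell surface, and Anxa2 and Anxa4 are abundant in epithelia.

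Anxa13 rests on 1 probe, so its sequence is printed here (5′ to 3′, as on the array, in lower case). In the mm9 build it lies on the minus strand at chr15:58173475-58173534, starting at base 892 of the transcript the array was designed on. Its longest run of bases in common with any of the other 13 annexin probes was 8.
Anxa13: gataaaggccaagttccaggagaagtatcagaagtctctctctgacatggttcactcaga

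Between 20992 and 24252 probes per array were well above background, a call the scanner software makes for each spot, and no spot was saturated. The median absolute log2 difference between replicate arrays lay between 0.09 and 0.16. All 12 interferon-response genes checked were higher with either cytokine (log2 differences of 1.89 to 6.60 with IFN-λ2 and 2.10 to 5.22 with IFN-β, medians 3.90 and 3.62). All 7 epithelial markers were well above background on every array, and 2 of them (Cdh1 and Krt19) rose with IFN-λ2 against control. The summed signal of the 7 was 302015 to 317806 units in control, 342502 to 367777 with IFN-λ2 and 304743 to 348639 with IFN-β. Krt18 alone held a mean of 204314, 241107 and 223274 units in these groups, and was not called against control. Vim, a mesenchymal intermediate filament gene, was also measured, at 13530 ± 2233 units in control (SD, n = 2), 7401 ± 950 with IFN-λ2 and 14780 ± 868 with IFN-β (SD, n = 3), and fell by 0.87 with IFN-λ2 on the log2 scale (limma, adjusted p = 0.00744). The summed signal of the 5 mesenchymal markers was 12031 to 15196 units in control, 6769 to 8558 with IFN-λ2 and 14088 to 15784 with IFN-β. Col1a1 was well above background on 4 arrays and Col1a2 on 6, and Pdgfra and Pdgfrb were on none. Of the immune markers reported, Ptprc and Emr1 were well above background on 2 arrays each, while Cd3e and Itgam were on all 8. Itgam was at 7133 ± 1780 units in control, 2878 ± 800 with IFN-λ2 and 6714 ± 4007 with IFN-β (adjusted p = 0.145 for IFN-λ2 against control). Of 3 endothelial markers, Kdr was well above background on all 8 arrays (859 ± 135 units in control, 820 ± 84.9 with IFN-λ2 and 877 ± 15.8 with IFN-β), Pecam1 on 7 and Cdh5 on none, and the summed signal was 815 to 997 units in control, 815 to 971 with IFN-λ2 and 905 to 939 with IFN-β. The part of these markers in the annexin differences was not tested.

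IFN-λ2 raised 2 annexins against control, Anxa13 and Anxa4, by 2 of 14 probes, where 10.1% of all tested probes were higher, and 0 probes were lower, where 8.39% were. IFN-β changed 0 of 14, where 1.63% were called in either direction. Between the cytokines, Anxa13 and Anxa4 were higher and Anxa5 was lower with IFN-λ2, where 5.64% of all probes were higher and 5.56% lower. With IFN-λ2 the annexin share is near that of all probes. The other 7 genes passed the test in no comparison. Signals are in units scaled so that each array's 75th percentile is 1500, a change is called at a Benjamini-Hochberg adjusted p under 0.05 from limma, and levels are not compared between probes.

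**Figure D1:**
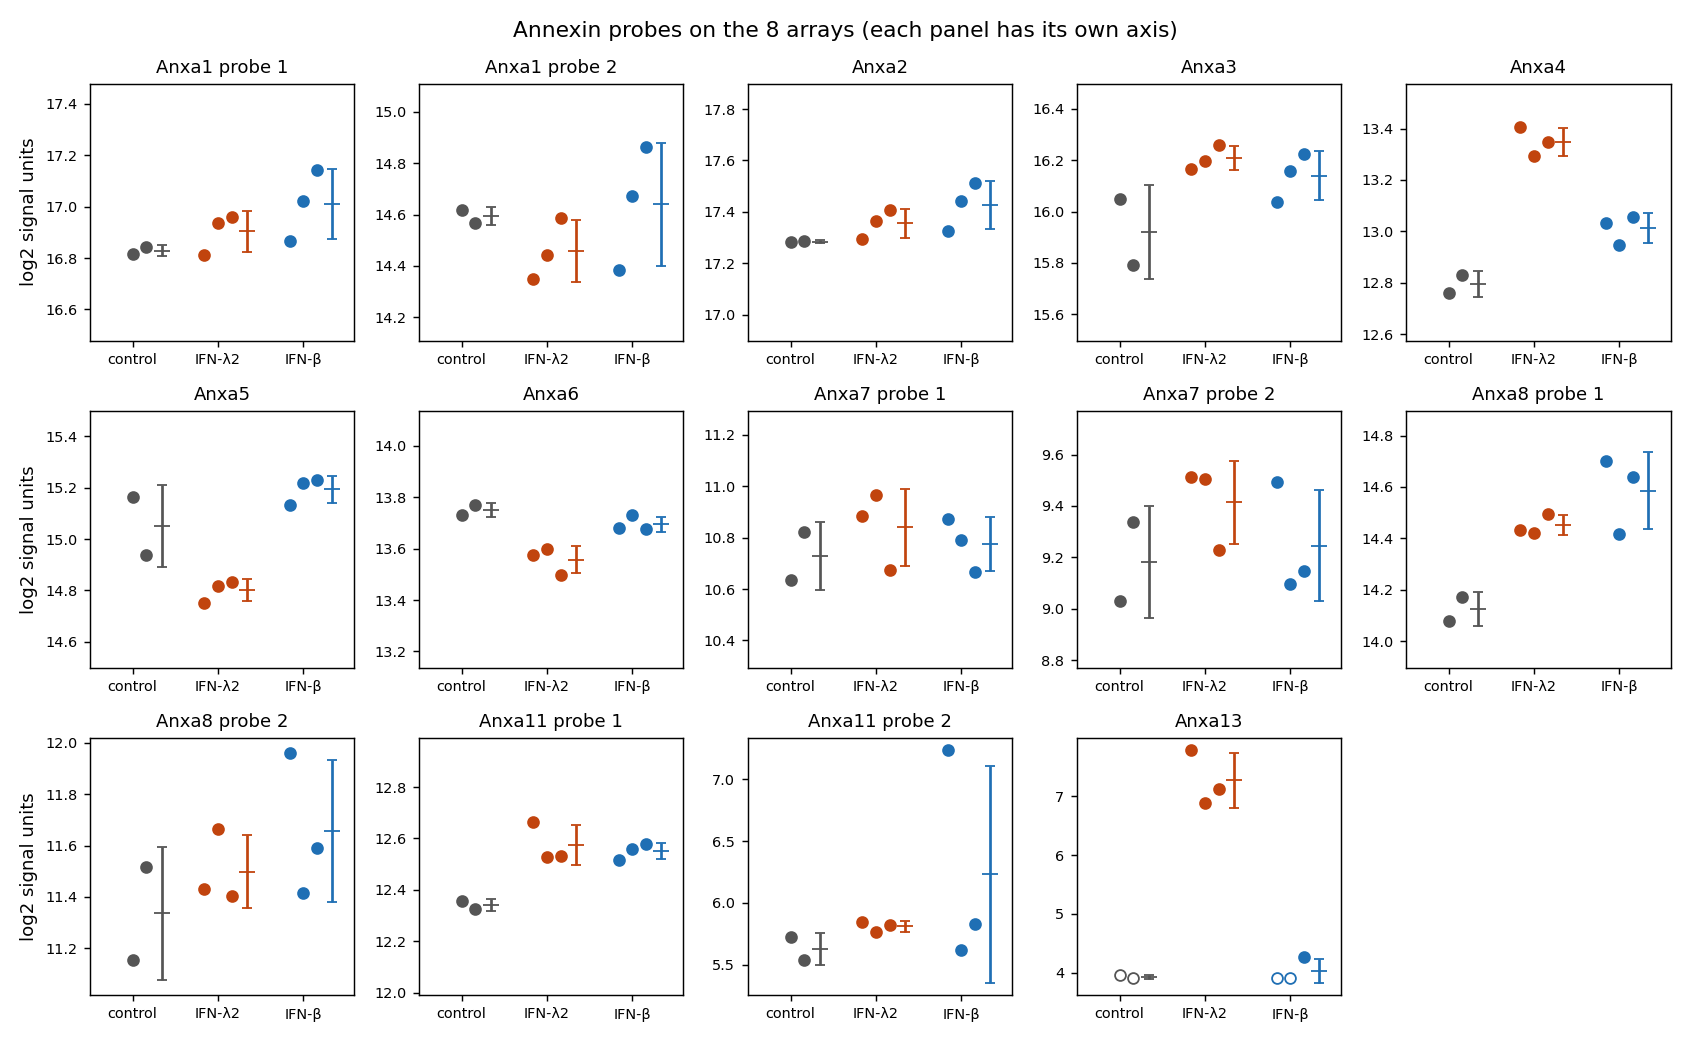
Log2 scaled signal of each of the 14 annexin probes (panels, each with its own axis) on the 8 arrays, by group. Points are arrays (open where the probe was not well above background) and bars are the mean ± SD. The 3 Anxa13 values with IFN-λ2 sit far above the other 5 arrays.

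Anxa13 showed the widest gap. Before the floor of 15 units was applied, its signal was 15.5 and 9.46 units in control, 222 and 119 and 140 units with IFN-λ2, and 6.40 and 7.93 and 19.2 units with IFN-β, in replicate order. The 3 IFN-λ2 arrays were well above background, whereas neither control array was, and only 1 of 3 IFN-β arrays was (replicate 3). The IFN-λ2 arrays were above all 5 others, while IFN-β and control overlapped. With the floor, Anxa13 was 3.34 higher with IFN-λ2 than in control on the log2 scale (SE 0.26, adjusted p = 0.000328) and 3.25 higher than with IFN-β (SE 0.23, adjusted p = 0.00054). The floor narrows the spread in control (SD of log2 values 0.03, against 0.47 with IFN-λ2). Without a floor the differences were 3.68 and 3.96 (limma, adjusted p = 0.00566 and 0.00457).

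Since the control signal is not well above background, the fold is given as a bound, against the lowest signal counted as well above background on each array or the probe's own, whichever is higher. By this bound the mean IFN-λ2 signal of Anxa13 was 8.74-fold over control. Over IFN-β, where 1 of 3 arrays measured the probe, the bound was 6.82-fold. Both are ratios of group means that leave out the spread between arrays, so they are not lower limits of the fold. Within slides (slides 2 and 3 held 1 array of each group, slide 1 only the treated arrays analysed here), IFN-λ2 was above control by 2.94 and 3.22 (replicates 2 and 3) and above IFN-β by 3.89, 2.99 and 2.87 (replicates 1 to 3). Both control arrays and IFN-β replicates 1 and 2 were at or near the floor, so the sizes of the differences from them depend on it. The log2 difference shrank to 1.63 in both comparisons with a floor of 50 units, and to 1.64 against control and 1.82 against IFN-β with the normexp background correction. All 19 limma refits kept both calls. The methods name an analysis between groups with a fold, a p and a q-value limit but not its statistic, so the methods' t-test here is a stand-in that compares 2 groups at 2-fold and an unadjusted p under 0.001, without the q-value. By it Anxa13 was called against IFN-β but not against control. IFN-β against control was not called (adjusted p = 0.926), and no size is given for this difference, since 4 of these 5 arrays did not measure the probe above background and its sign changed in 4 of the 19 refits.

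**Figure D2:**
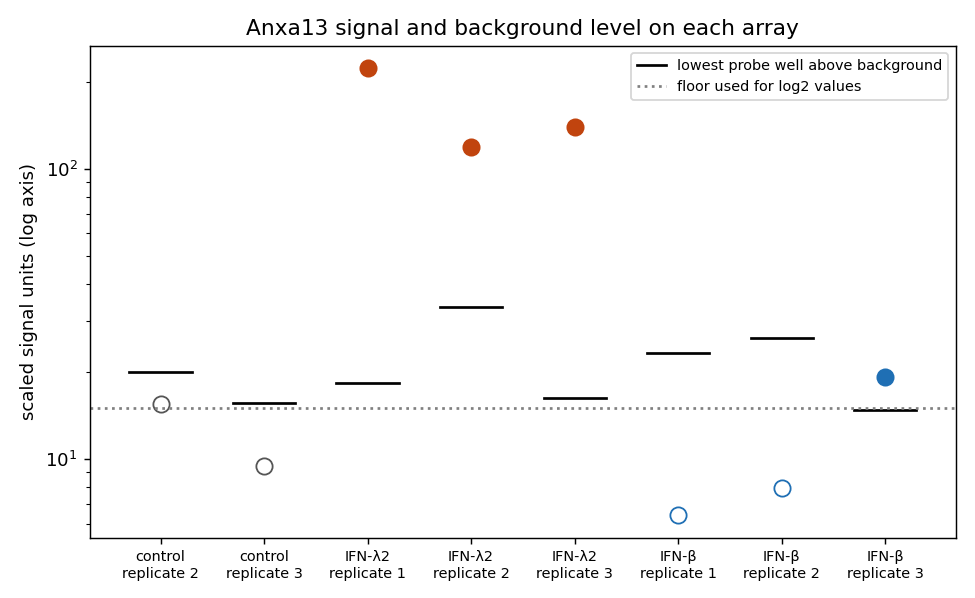
Anxa13 signal before the floor (log axis, scaled units) on each array, filled where well above background, with a black bar for the lowest signal counted as well above background on that array and a dotted line for the floor of 15 units. The IFN-λ2 arrays lie above their bars; both control arrays and IFN-β replicates 1 and 2 lie below theirs.

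Anxa4, a calcium-dependent membrane-binding protein abundant in secretory and absorptive epithelia, was at 6937 and 7290 units in control, 10846 and 10036 and 10413 units with IFN-λ2, and 8386 and 7898 and 8518 units with IFN-β. All IFN-λ2 values were above all others, and all IFN-β values were above control. The IFN-λ2 group was 1.47-fold above control (95% interval 1.30 to 1.65; log2 0.55, SE 0.07, adjusted p = 0.00324). It was 1.26-fold above IFN-β (95% interval 1.13 to 1.40; log2 0.34, SE 0.07, adjusted p = 0.02). IFN-β against control was 0.22 on the log2 scale (SE 0.07) and was not called (adjusted p = 0.302).

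The Anxa4 call against control held in all 19 limma refits, and the call between the cytokines in 14. Neither difference reaches 2-fold, so both calls are lost where that is required. It was lost without IFN-λ2 replicate 1 (adjusted p = 0.0845) or 3 (0.0617), without IFN-β replicate 2 (0.0636) or 3 (0.0561), and with normexp (0.0799), while the log2 difference stayed between 0.30 and 0.36. Within slides it was 0.37, 0.35 and 0.29.

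Anxa5, which binds phosphatidylserine and serves as a probe for apoptotic cells, went the other way. It was at 36681 and 31403 units in control, 27582 and 28856 and 29162 units with IFN-λ2, and 35951 and 38154 and 38427 units with IFN-β. The IFN-λ2 arrays were below all others, while IFN-β and control overlapped. Between the cytokines it fell by 0.39 with IFN-λ2 on the log2 scale (SE 0.08, adjusted p = 0.0213), which is 0.761 of the IFN-β level (95% interval 0.670 to 0.864).

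Against control the Anxa5 difference with IFN-λ2 was -0.25 (SE 0.09, adjusted p = 0.0933) and with IFN-β 0.14 (SE 0.09, adjusted p = 0.588), neither called. With quantile normalization (-0.39, adjusted p = 0.0163) or a variance trend (adjusted p = 0.0487) the difference with IFN-λ2 was called. It was -0.14 without control replicate 2 and -0.36 without control replicate 3, with no call. The call between the cytokines held in 13 of 19 limma refits and was lost where 2-fold is required, without IFN-λ2 replicate 1 (adjusted p = 0.0871), 2 (0.0585) or 3 (0.0565), without IFN-β replicate 2 (0.0621) or 3 (0.0817), and with normexp (0.0506), while the log2 difference stayed between -0.42 and -0.37 in all 19. The within-slide differences were -0.38, -0.40 and -0.40.

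**Figure D3:**
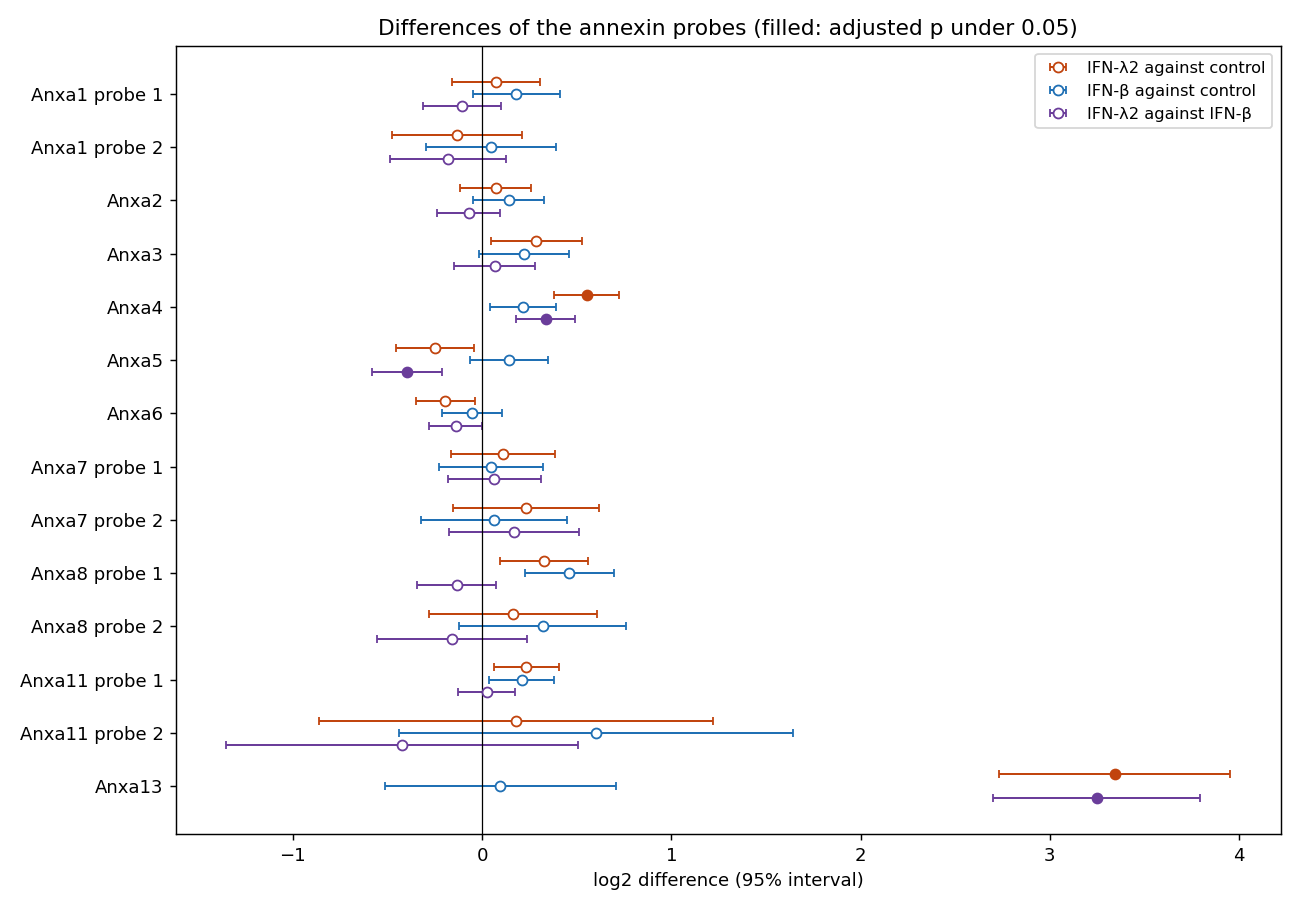
Log2 differences with 95% intervals for the 14 annexin probes in the 3 comparisons, filled where adjusted p is under 0.05. Filled points are the 2 Anxa13 differences above 3, the Anxa4 differences of 0.55 and 0.34, and the Anxa5 difference of -0.39.

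The bright probe of Anxa8, an annexin of squamous and other epithelia, was at 17281 and 18439 units in control, 22134 and 21955 and 23098 units with IFN-λ2, and 26645 and 21859 and 25504 units with IFN-β. Every treated array was above both controls. The differences of 0.33 with IFN-λ2 (SE 0.10, adjusted p = 0.0627) and 0.46 with IFN-β (SE 0.10, adjusted p = 0.0994) were not called. Without IFN-β replicate 2 both would be (adjusted p = 0.0366 and 0.0487). The dimmer Anxa8 probe gave 0.16 and 0.32 (SE 0.19, adjusted p = 0.582 and 0.572). Leaving out 1 array moved these to between -0.02 and 0.35 and between 0.14 and 0.50.

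Anxa3 was at 67798 and 56688 units in control, 73533 to 78419 with IFN-λ2 and 67262 to 76532 with IFN-β. Its differences of 0.29 and 0.22 against control were not called (adjusted p = 0.0953 and 0.459). They were 0.42 and 0.35 without control replicate 2 and 0.16 and 0.09 without control replicate 3, with no call. Anxa6, a longer annexin tied to endocytosis and cholesterol handling, was at 13591 and 13958 units in control, 11562 to 12402 with IFN-λ2 and 13078 to 13582 with IFN-β. The IFN-λ2 arrays were below the other 5, with a log2 difference of -0.19 against control (SE 0.07, adjusted p = 0.0911). This difference was called in 3 of 19 limma refits, with quantile normalization (-0.29, adjusted p = 0.0285), without the filter on dim probes (0.0301) and with a variance trend (0.0424).

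Anxa11, which has a long proline-rich tail and acts at the midbody and in the transport of RNA granules, has 2 probes, neither called in any comparison of the main fit. The bright probe was at 5248.6 and 5128 units in control, 5908 to 6492 with IFN-λ2 and 5855 to 6120 with IFN-β, with differences of 0.23 and 0.21 (SE 0.07) that were not called (adjusted p = 0.0668 and 0.314). The difference with IFN-λ2 was called in 3 of 19 limma refits, with a floor of 50 (adjusted p = 0.047), without the filter on dim probes (0.0408) and with a variance trend (0.033). The dim probe lay between 46.4 and 57.6 units on 7 arrays and at 151 on IFN-β replicate 1. Its difference for IFN-λ2 against control was 0.18 (SE 0.44, adjusted p = 0.807), with every IFN-λ2 array above both controls. With the array at 151 its difference for IFN-β against control was 0.60 (SE 0.44, adjusted p = 0.653), and without it 0.10.

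Anxa1, Anxa2 and Anxa7 passed the test in no comparison. Anxa1, an anti-inflammatory ligand of formyl peptide receptors, ranged from 115138 to 144546 units over the 8 arrays on its bright probe, and Anxa2, which pairs with S100a10 at the membrane, ranged from 159210 to 186741. The bright Anxa1 probe differed by 0.07 (95% interval -0.16 to 0.31) with IFN-λ2 and by 0.18 (-0.05 to 0.41) with IFN-β against control. The dimmer Anxa1 probe gave -0.13 with IFN-λ2, the opposite sign, and 0.05 with IFN-β (SE 0.14, adjusted p = 0.560 and 0.939). For Anxa2 the differences were 0.07 (-0.12 to 0.26) and 0.14 (-0.05 to 0.33). Anxa7, a membrane fusion protein, gave 0.11 and 0.05 on its bright probe and 0.23 and 0.06 on its dim probe, with none called. Leaving out 1 array gave 0.02 to 0.20 and -0.05 to 0.14 on the bright probe. On the dim probe it gave 0.08 to 0.38 and -0.09 to 0.22.

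At an unadjusted p under 0.05, 5 of 14 annexin probes were higher and 2 lower with IFN-λ2 against control, beside 17.2% and 15.9% of all tested probes. The methods' t-test after adjustment gave 2 higher and 0 lower, but its share of all probes is not given, so these counts cannot be set against it. With IFN-β against control, 3 of 14 were higher and 0 lower at an unadjusted p under 0.05 by limma, beside 6.92% and 5.06% of all probes. The methods' t-test after adjustment called 0, again with no share of all probes beside it.

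The arrays of the groups did not overlap for 9 of 14 annexin probes with IFN-λ2 against control (49.6% of all probes), for 6 with IFN-β against control (26.3%) and for 4 between the cytokines (32.3%). Probes of 1 gene share their target, so these counts hold fewer than 14 independent measurements. The median log2 difference of the 14 probes was 0.17 with IFN-λ2 against control (all probes 0.0039), 0.16 with IFN-β against control (0.016) and -0.09 between the cytokines (-0.012). With quantile normalization these medians were 0.14, 0.06 and -0.09, and with normexp 0.21, 0.19 and -0.07. Without control replicate 2 the median with IFN-λ2 against control was 0.07, and without IFN-β replicate 1 that between the cytokines was 0.00045. Both comparisons against control use the same 2 control arrays.

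**Figure D4:**
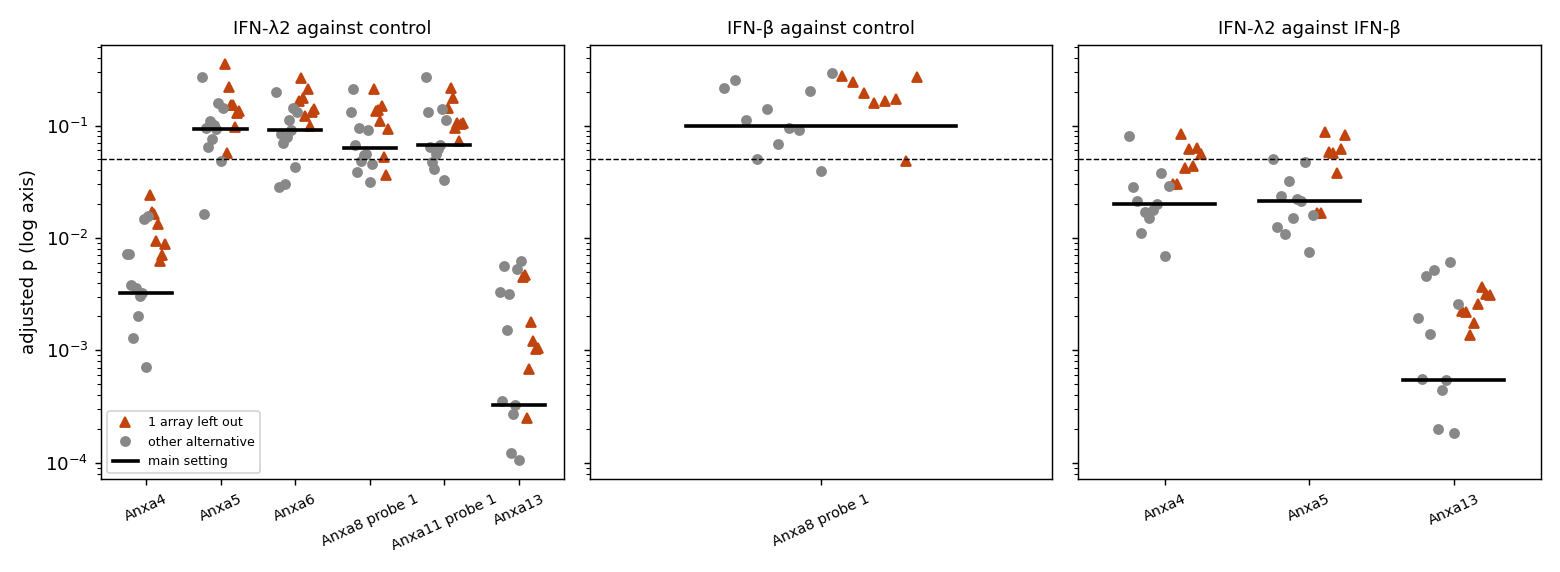
Adjusted p (log axis) under each alternative for the annexin probes that passed the test in at least 1 setting, with triangles where 1 array was left out, grey points for other alternatives, a black bar for the main setting and a dashed line at 0.05. Anxa13 stays below the line in all 19 refits drawn, whereas Anxa4 and Anxa5 between the cytokines lie on both sides of it.

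Of the genes that work with annexins, the S100 partners gave 0 of 6 called against control by limma, where 10.1% of all probes were higher and 8.39% lower with IFN-λ2 and 1.63% were called with IFN-β. At an unadjusted p under 0.05, 1 of them was lower with IFN-λ2, where 15.9% of all probes were, and 0 changed with IFN-β. The 6 include S100b, which was well above background on 1 array only. S100a10 differed by -0.03 with IFN-λ2 (SE 0.10, adjusted p = 0.873) and 0.10 with IFN-β (SE 0.10, adjusted p = 0.748). Between the cytokines 1 of 6 was lower, where 5.56% of all probes were. Anxa9 was at 213 to 256 units and was not called, and Anxa10 was not well above background on any array. The formyl peptide receptor genes Fpr1, Fpr2 and Fpr3, through which Anxa1 signals, had no probe bright enough to test. Pla2g4a, a cytosolic phospholipase, was not called. Over the 7 pathway lists, 47 genes were tested. With IFN-λ2 against control 8 were higher and 2 lower (10.1% and 8.39% of all tested probes were), and with IFN-β 0 were called, where 1.63% of all probes were (at an unadjusted p under 0.05, 5 were higher and 1 lower, beside 6.92% and 5.06% of all probes). Between the cytokines 5 were higher and 4 lower with IFN-λ2, beside 5.64% and 5.56%.

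In the plasminogen system around Anxa2, 1 of 5 genes tested rose with IFN-λ2 (10.1% of all probes did) and 0 were called with IFN-β (1.63%). It was Plaur, the urokinase receptor, at 6624 ± 296 units in control (SD, n = 2), 10391 ± 545 with IFN-λ2 and 7790 ± 248 with IFN-β (SD, n = 3), a log2 difference of 0.65 against control (SE 0.08, adjusted p = 0.00202) and of 0.41 against IFN-β (SE 0.07, adjusted p = 0.0112). The median of these genes was 0.29 with IFN-λ2 and 0.38 with IFN-β. It includes Plg, which was well above background on 1 array only.

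Of 14 membrane repair genes tested, 4 rose with IFN-λ2 against control (10.1% of all probes did), 0 fell (8.39%), and 0 were called with IFN-β (1.63%). Their median was 0.14 with IFN-λ2. Cav1, the caveolar coat protein, went from 304 ± 20.4 to 488 ± 22.7 units (log2 0.68, SE 0.09, adjusted p = 0.00334). Ahnak, a giant scaffold that binds the Anxa2 and S100a10 complex, was 0.63 higher (SE 0.11, adjusted p = 0.0112), Chmp4b, of the ESCRT-III coat, 0.62 (SE 0.16, adjusted p = 0.0361), and Pdcd6, a calcium sensor that binds Anxa7 and Anxa11, 0.56 (SE 0.13, adjusted p = 0.0235). Between the cytokines 2 were higher and 1 lower with IFN-λ2, beside 5.64% and 5.56% of all probes.

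Among 8 phosphatidylserine transport genes, 1 fell with IFN-λ2 (8.39% of all probes did) and 0 rose (10.1%). Atp11a, a flippase that moves phospholipid inward across the membrane, was at 27552 ± 4008 units in control and 18937 ± 749 with IFN-λ2, and fell by 0.53 on the log2 scale (SE 0.11, adjusted p = 0.0181). The list median was -0.06. With IFN-β 0 of 8 were called (1.63%). Between the cytokines 2 of 8 were lower with IFN-λ2, where 5.56% of all probes were, Atp11a among them (-0.45, SE 0.10, adjusted p = 0.0307).

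Of 12 apical sorting and raft genes, 3 rose and 1 fell with IFN-λ2 against control, beside 10.1% and 8.39% of all probes, and 0 were called with IFN-β, beside 1.63%. Mal, a raft proteolipid that carries cargo to the apical surface, was at 26817 ± 1033 units in control, 61998 ± 7356 with IFN-λ2 and 33704 ± 2357 with IFN-β, a log2 difference of 1.20 against control (SE 0.12, adjusted p = 0.000866) and 0.87 against IFN-β (SE 0.10, adjusted p = 0.00329). The median of the list was -0.02, and 8 of its genes were not called against control. Between the cytokines 2 of 12 were higher with IFN-λ2 (5.64% of all probes were) and 0 lower (5.56%).

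The 5 genes whose probes followed Anxa13 most closely were 0610040J01Rik (0.19), Gcnt3 (0.25), Dnahc7b (0.27), Serpinb1a (0.30) and Rasal1 (0.31). The measure was the root mean square difference of centred log2 values over the 8 arrays. It was taken among 20568 probes well above background on all IFN-λ2 arrays. Gcnt3 was well above background on 0 control arrays and 1 IFN-β array, Dnahc7b on 1 and 0, and Rasal1 on 1 and 2. For these genes and Anxa13, values at or near the floor enter the distances. Mean signals in control and with IFN-λ2 were 89.0 and 829 units for 0610040J01Rik and 120 and 1781 units for Serpinb1a, a serine protease inhibitor. No other annexin probe was nearer than Anxa4, at 1.41, with 1318 probes closer than it. These genes were picked for this pattern, so their levels are a description.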

How the data were processed

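RNA of 8 samples was labelled with 1 colour and hybridized to Agilent mouse arrays, scanned and read with Agilent Feature Extraction 10.7.3.1, per the labels. The deposited scanner files hold the processed signal intensity of each spot, which the authors' software had background-subtracted. The authors' value table, used as an alternative, holds the same intensity after scaling and a floor of 15: its scale differs from the values here by 0.909 to 0.926 per array, its columns are not centred and its medians lie between 51.4 and 55.9. Following the study's methods, spots called outliers or flagged, with a pixel coefficient of variation above 0.5, or outlying among repeat spots of their probe were dropped, repeat spots were averaged, each array's 75th percentile was set to 1500, values under 15 were set to 15, and log2 was taken. A probe whose every spot would be dropped kept its value, which held for 2 to 82 probes per array and for no annexin probe. Probes above 15 on at least 2 arrays were tested with limma 3.58.1 (R 4.3.3) on 3 group means over all 8 arrays, with Benjamini-Hochberg adjustment over 26009 probes. The number of arrays limits the precision. The fit was also run on simulated data, drawn as independent normal values. Those had no floor and no shared slides, so that run does not cover these features.

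Replicate numbers match slides and scans. Deviations from the group means correlated by 0.18, 0.28 and 0.32 between the IFN-λ2 and IFN-β arrays of 1 number, so the numbers pair these arrays, and a fit with the replicate block was an alternative. The position on the slide and the treatment cannot be told apart. Named were all annexins with all their probes, the members of pathway lists past the test with a log2 difference of at least 0.5 by their brightest probe, and the 5 genes most like Anxa13. Some list genes outside this rule are also named, such as S100a10, Pla2g4a and the formyl peptide receptor genes. The members and lists were chosen with earlier results of these data known, and Anxa13 was already known to rise with IFN-λ2, so its pattern is no independent support. Gene names are those of the array's design. The first control replicate was not analysed here. A marker gene is not reported here.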

Additional observations from a re-analysis of the deposited data

Results flagged for a closer look

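In 3 annexins the response to IFN-λ2 differed from that to IFN-β, by the limma test of the difference between the treated groups (n = 3 each). Anxa13 differed by 3.25 between the group means on the log2 scale with the floor. By the bound it was 6.82-fold, as only 1 of 3 IFN-β arrays measured it above background. The arrays did not overlap. Anxa4 was 0.34 higher and Anxa5 differed by -0.39, each also without overlap, and both calls were lost without some of the single arrays. Groups of 2 or 3 arrays are too small for the check of single samples far from the others.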

How the results depend on the processing

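Of 42 single-probe differences, 5 were called. The 2 for Anxa13 and that for Anxa4 against control stayed called under all 19 limma refits, 2 were lost under some, 5 others were gained under some, and 32 were never called. No called difference changed sign, and 10 uncalled ones did, in 19 of their refitted values. For IFN-λ2 against control the 2 higher probes became 4 with a floor of 50, 4 with a variance trend, 3 without the filter on dim probes, with probes well above background on all arrays of a group or with only the 2 groups compared, 1 at 2-fold and 0 by the methods' t-test (a stand-in at 2-fold and unadjusted p under 0.001, without the study's q-value limit), and the 0 lower became 2 with quantile normalization, 1 without the filter on dim probes and 2 with the trend. For IFN-β the 0 higher became 1 with the trend. Between the cytokines the 2 higher became 1 and the 1 lower became 0 with normexp, at 2-fold and by the methods' t-test. The causes were not tested. Leaving out 1 array gave 2 to 3 higher and 0 lower with IFN-λ2, 0 to 1 higher and 0 lower with IFN-β, and 1 to 2 higher and 0 to 1 lower between the cytokines. Without a control array 1 remains, and limma assumes it varies like the other groups. The median absolute log2 difference of 0.17 ranged from 0.15 to 0.20. With the replicate block the annexin counts were unchanged at 2 and 0, 0 and 0, and 2 and 1 (Anxa5 adjusted p = 0.0473), and it changed no annexin call, while the lower calls of all probes with IFN-β went from 55 to 10. Normexp moved the median of all probes with IFN-λ2 against control to 0.11 and made fewer calls in both directions: 1486 higher and 631 lower in place of 2621 and 2183 (54.6% to 70.2% higher), 260 and 6 in place of 369 and 55 with IFN-β (87.0% to 97.7%), and 993 and 386 in place of 1466 and 1446 between the cytokines (50.3% to 72.0%). The calls of Anxa4 and Anxa5 between the cytokines lie near the limit of this test with 3 arrays a group, and Anxa13 in control is known only as a bound.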
